A study of Rattus norvegicus with 10 samples.

Results

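A group of 10 genes for activating and inhibitory receptors of myeloid cells, with their signalling adaptors, was examined in rat dorsal root ganglia after intrathecal delivery of a small interfering RNA (siRNA). The genes are Lilrb4, Fcgr3a, Fcgr2b, Fcgr1a, Fcer1g, Tyrobp, Cd14, Cd68, Itgam and Ptprc, taken by name from a count table of 30560 genes. All 10 had a row of their own and passed the filter on low counts, as did 15186 genes in all. The genes were chosen by a measured value: Lilrb4 was already known to be higher in the siRNA-treated ganglia of these same libraries, with a log2 fold change of 1.75, and the other 9 were added around it as genes of the same kind of cell. Values of treated against control ganglia are therefore given for the 10 genes as a description, without a test of the group.

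RNA was sequenced from the L6 dorsal root ganglion, which houses the sensory neurons of a spinal nerve, in Sprague Dawley rats. They were 7 to 8 weeks old. The control group was 5 samples from rats dosed with phosphate-buffered saline (PBS, 0 mg siRNA). The treated group was 5 samples from rats dosed with 0.75 mg of SCN9A_2544, a divalent siRNA against Scn9a, the gene of the sodium channel Nav1.7. Rats of both groups carried a surgically implanted lumbar intrathecal catheter, were dosed through it 5 days after surgery, and received the analgesic meloxicam. The labels give 14 days as the time point of every sample, without saying from which event it counts. No group given another siRNA was analysed here, so the sequence of this siRNA and dosing with any siRNA cannot be told apart. The labels do not say that each sample is 1 animal, so the spread between samples may be partly technical.

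Myeloid cells read their surroundings through receptors that carry opposing signals. Activating receptors such as the high-affinity and low-affinity receptors for immunoglobulin G pair with small adaptors, Fcer1g or Tyrobp, whose tails hold the tyrosine motif called ITAM, which recruits the kinase Syk once phosphorylated. Inhibitory receptors carry the motif called ITIM in their own tails and recruit phosphatases that dampen the same pathway. In the dorsal root ganglion these genes are known from resident macrophages that lie around the neurons and from leukocytes that enter from the blood.

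The promoters of these genes were read first, because the factor PU.1, which directs myeloid gene expression, binds a purine-rich sequence called the PU-box. RefSeq promoter windows (build GRCr8) ran from 250 bases before to 50 bases after a start position set for each gene. They were matched by symbol for 6 of the 10 genes, namely Lilrb4, Fcgr3a, Cd14, Cd68, Itgam and Ptprc. The letters GAGGAA, or TTCCTC on the other strand, were found in 6 of these 6 windows, and in 26.8% of the 12292 windows of genes tested here. The shorter letters GGAA or TTCC, which the first motif contains, were in 95.8% of all 33469 windows of the table and in 6 of the 6. These matches describe letters only and show no binding. The Cd14 window lay wholly inside the annotated gene, with 0 bases outside it, so its match is counted but not shown. The sequences below are shown because they hold the match in 5 of the genes, written 5′ to 3′ on the strand of the gene, with the match in capitals and bases inside the annotated gene left out. Lilrb4 lies at chr1:78853295-78853502 on the minus strand, Fcgr3a at chr13:85782552-85782617 on the plus strand, Cd68 at chr10:54882442-54882498 on the minus strand, Itgam at chr1:192089411-192089476 on the plus strand and Ptprc at chr13:52259874-52259939 on the minus strand, all in GRCr8.
Lilrb4: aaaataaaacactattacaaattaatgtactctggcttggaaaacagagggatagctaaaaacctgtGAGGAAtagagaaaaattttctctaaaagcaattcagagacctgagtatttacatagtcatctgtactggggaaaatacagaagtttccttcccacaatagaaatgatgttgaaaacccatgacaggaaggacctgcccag
Fcgr3a: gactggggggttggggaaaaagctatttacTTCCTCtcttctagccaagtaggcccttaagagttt
Cd68: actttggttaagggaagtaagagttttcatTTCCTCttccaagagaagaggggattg
Itgam: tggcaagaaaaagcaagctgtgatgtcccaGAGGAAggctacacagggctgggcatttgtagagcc
Ptprc: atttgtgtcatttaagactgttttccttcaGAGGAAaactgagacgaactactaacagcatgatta
The match shown began 183 bases before the start position of the window in Lilrb4, 163 in Ptprc, 151 in Itgam, 54 in Fcgr3a and 27 in Cd68. In Lilrb4, Ptprc and Itgam the annotated gene began before that position. There 208, 186 and 154 bases of the window lay outside the gene, beside 250 in Fcgr3a and Cd68.

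Library totals ran from 11832376 to 15420006 estimated counts. Values are given as CPM, in which TMM factors put the libraries on 1 scale, which compares 1 gene between libraries but not different genes with each other. Markers of neurons, Schwann cells and satellite glia, the cells that define this tissue, were abundant in every library. The summed level of 20 pan-neuronal genes ran from 15856 to 45893 CPM, and 3 libraries (PBS replicates 3 and 5 and SCN9A_2544 replicate 3) had the lowest pan-neuronal means. Because whole ganglia were sequenced, more cells of a type and more RNA per cell cannot be told apart. In the edgeR quasi-likelihood test over all genes, 0 of the 10 receptor genes and 0% of the 15186 genes tested passed an adjusted p of 0.05. Over all genes 642 had an unadjusted p under 0.05, DESeq2 passed 17 and limma voom 1.

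Lilrb4 (ENSRNOG00000027811) encodes an inhibitory receptor of the immunoglobulin family that signals through ITIMs, and it had the largest log2 fold change of the 10 genes. Its level was 1.442, 1.86, 0.632, 0.854 and 0.601 CPM in PBS replicates 1 to 5. In SCN9A_2544 replicates 1 to 5 it was 3.35, 3.26, 2.59, 5.79 and 3.23 CPM. The groups did not overlap: the lowest treated library, replicate 3, lay above the highest PBS library, replicate 2. Behind these values stood 9 to 28 estimated counts in PBS and 38 to 92 in treated libraries, so the gene was scarce in every sample. The group means were 1.08 ± 0.553 CPM and 3.65 ± 1.24 CPM (SD, 5 libraries each), 3.38-fold apart. The edgeR log2 fold change was 1.75 (SE 0.37, 95% interval 0.94 to 2.55), above that of 99.9% of tested genes, and this value is the one around which the genes were chosen.

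Fcgr2b (ENSRNOG00000046452), the inhibitory receptor for immunoglobulin G with an ITIM of its own, owed most of its difference to 1 library. It stood at 1.99, 4.39, 2.39, 2.56 and 2.67 CPM in PBS replicates 1 to 5 and at 3.65, 2.31, 4.83, 11.1 and 3.44 CPM in SCN9A_2544 replicates 1 to 5. Treated replicate 4 stood far above every other library, while treated replicates 1, 2 and 5 lay inside the PBS range. The log2 fold change was 0.86 (SE 0.41, 95% interval -0.03 to 1.75), and 0.34 without SCN9A_2544 replicate 4.

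The activating receptors for immunoglobulin G differed less than their spread between libraries. Fcgr1a (ENSRNOG00000021199), the high-affinity receptor for immunoglobulin G, ran from 4.12 to 6.54 CPM in PBS, with a median of 5.65, and from 4.22 to 7.69 CPM in treated libraries, with a median of 5.03. Its log2 fold change was 0.10 (SE 0.24, 95% interval -0.43 to 0.62), and its sign turned when SCN9A_2544 replicate 3 or 4 was left out. Fcgr3a (ENSRNOG00000024382), a low-affinity receptor for immunoglobulin G for which RefSeq also gives the name Fcgr4, so that which receptor of other species it matches is uncertain, ran from 1.13 to 2.67 CPM in PBS and from 1.55 to 3.27 CPM in treated libraries, with a log2 fold change of 0.34 (SE 0.30, 95% interval -0.32 to 1.00). That of Fcgr3a was 0.16 without SCN9A_2544 replicate 4, 0.19 without PBS replicate 5 and 0.54 without PBS replicate 3. The groups overlapped for Fcgr1a and for Fcgr3a. The Fc receptor genes resemble each other in sequence, and how reads that match several of them were counted is not given in the sources used here. All estimates of Fcgr1a, Fcgr3a and Fcgr2b, over the 10 libraries, were whole numbers.

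The balance of inhibitory to activating receptor was followed within each library as the difference between Fcgr2b and Fcgr1a in log2 CPM. This difference was -0.9996, -0.36, -1.22, -0.89 and -1.25 in PBS replicates 1 to 5. It was -0.45, -0.83, -0.66, 0.54 and -0.29 in SCN9A_2544 replicates 1 to 5. SCN9A_2544 replicate 4 was the highest library, and PBS replicate 2 lay within the treated range. The group means were -0.94 ± 0.36 for PBS and -0.34 ± 0.53 for SCN9A_2544 (SD, 5 libraries each), a difference of 0.61. Without SCN9A_2544 replicate 4 the difference was 0.39.

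The means of the ITAM adaptors were 1.33-fold apart for Fcer1g and 1.52-fold apart for Tyrobp, with overlapping groups. Fcer1g (ENSRNOG00000024159), the common gamma chain of Fc receptors, stood at 27.1, 36.1, 24.7, 24.4 and 23.8 CPM in PBS replicates 1 to 5. In SCN9A_2544 replicates 1 to 5 it stood at 29.5, 34.1, 38.9, 49.7 and 28.7 CPM. All treated libraries lay above the PBS median, but PBS replicate 2 lay above treated replicates 1, 2 and 5. The log2 fold change of Fcer1g was 0.41 (SE 0.18, 95% interval 0.02 to 0.81), or 0.27 without SCN9A_2544 replicate 4. Its estimates were not whole numbers in any of the 10 libraries, as happens when reads are divided between features.

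Tyrobp (ENSRNOG00000020845), the adaptor also called DAP12 that serves receptors such as Trem2, stood at 15.0, 23.1, 8.57, 22.04 and 12.01 CPM in PBS replicates 1 to 5. In SCN9A_2544 replicates 1 to 5 it stood at 20.8, 21.0, 39.7, 29.7 and 11.6 CPM. Treated replicates 3 and 4 were the highest of all libraries, and treated replicate 5 lay below 4 of the 5 PBS libraries. Its log2 fold change was 0.60 (SE 0.34, 95% interval -0.14 to 1.34). The estimate was 0.33 without SCN9A_2544 replicate 3, and 0.03 once the 3 libraries poorest in pan-neuronal genes, that replicate among them, were removed.

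Cd14 (ENSRNOG00000017819), the co-receptor that hands bacterial lipopolysaccharide to Tlr4, was the other gene whose groups did not overlap. It stood at 1.92, 2.66, 2.67, 2.31 and 3.004 CPM in PBS replicates 1 to 5 and at 4.74, 3.54, 4.97, 3.71 and 3.64 CPM in SCN9A_2544 replicates 1 to 5. Its spread was narrow in both groups, at 16.4% and 16.5% of the mean. The log2 fold change was 0.71 (SE 0.21, 95% interval 0.25 to 1.17) and ran from 0.60 to 0.76 as each library was left out in turn. Groups in which every treated library lay above every PBS library were found for 2 of the 10 genes, Lilrb4 and Cd14, beside 0.454% of all genes tested. Lilrb4 was chosen for this contrast, and nothing is read from that count.

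Cd68 (ENSRNOG00000037563), a glycoprotein of macrophage lysosomes, stood at 2.61, 5.52, 3.93, 4.27 and 3.87 CPM in PBS replicates 1 to 5. It stood at 4.74, 5.24, 11.5, 10.1 and 4.85 CPM in SCN9A_2544 replicates 1 to 5. Treated replicates 3 and 4 were far above the rest, and the other 3 treated libraries lay below PBS replicate 2 and above the other PBS libraries. The log2 fold change was 0.85 (SE 0.31, 95% interval 0.17 to 1.54).

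Itgam and Ptprc, the broadest leukocyte genes of the group, were highest in a PBS library. Itgam (ENSRNOG00000019728) encodes the integrin CD11b of macrophages, monocytes and neutrophils, and it stood at 7.69, 17.2, 4.57, 5.30 and 3.74 CPM in PBS replicates 1 to 5. In SCN9A_2544 replicates 1 to 5 it stood at 6.64, 6.94, 14.5, 13.8 and 5.86 CPM. Ptprc (ENSRNOG00000000655) encodes CD45, a tyrosine phosphatase on nearly all leukocytes, and it stood at 15.6, 23.0, 12.4, 10.7 and 7.68 CPM in PBS replicates 1 to 5. In SCN9A_2544 replicates 1 to 5 Ptprc stood at 16.4, 11.6, 19.4, 20.8 and 11.5 CPM. For both genes PBS replicate 2 was the highest of the 10 libraries and PBS replicate 5 the lowest, and the groups overlapped. The log2 fold changes were 0.31 (SE 0.43, 95% interval -0.63 to 1.25) for Itgam and 0.20 (SE 0.29, 95% interval -0.43 to 0.82) for Ptprc. Without PBS replicate 2 they were 0.84 and 0.46, while leaving out 1 of the other libraries gave 0.08 (without SCN9A_2544 replicate 3) to 0.44 for Itgam and 0.02 (without PBS replicate 5) to 0.30 for Ptprc, and they were -0.31 and -0.16 once the 3 libraries poorest in pan-neuronal genes were removed.

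**Figure D1:**
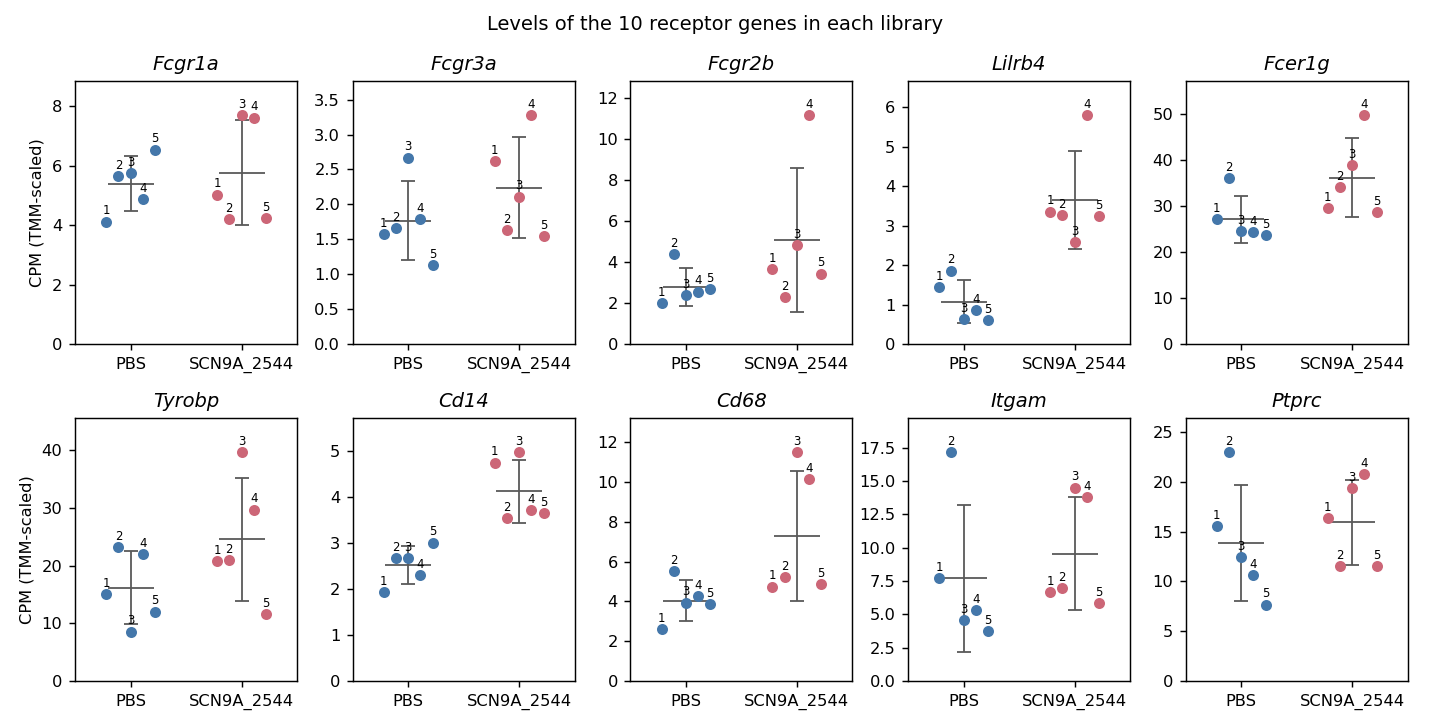
TMM-scaled CPM of the 10 genes (vertical axes, linear and starting at 0) in the PBS and SCN9A_2544 libraries, each point a library marked with its replicate number, with the group mean and SD (n = 5 each) as a bar with whiskers. The groups are apart for Lilrb4 and Cd14, while Itgam and Ptprc are highest in PBS replicate 2.

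Taken over the 10 genes, all had a log2 fold change above 0, as did 53.4% of all genes tested. Their median was 0.51, or 0.41 without Lilrb4, beside 0.02 over all genes tested. The 95% interval included 0 for 6 of the 10. An unadjusted edgeR p under 0.05 was reached by 4 of the 10 (Lilrb4, Cd14, Cd68 and Fcer1g), all higher in treated ganglia, beside 2.5% of all genes in that direction and 4.23% in either, and the adjusted threshold by none. DESeq2 passed 1 of the 10, Lilrb4 (adjusted p = 0.0124, against 0.812 by edgeR, 0.223 to 1.000 in the edgeR alternatives and 0.140 by limma voom), beside 0.0992% of the 17140 genes it tested. Limma voom with library weights passed 0 of the 10. The rule for the group used this contrast, so these counts support nothing.

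**Figure D2:**
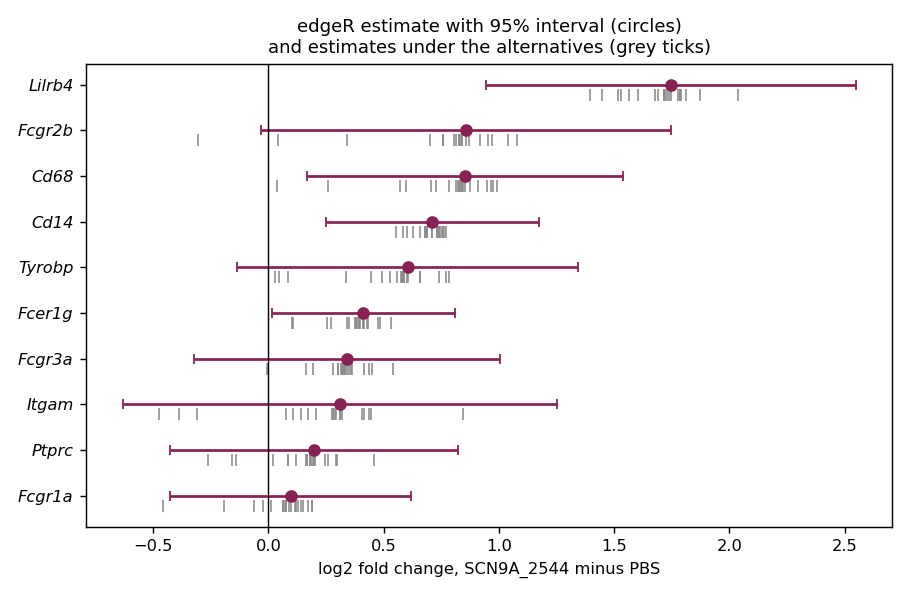
edgeR log2 fold change, SCN9A_2544 minus PBS, of each gene (circles) with its 95% interval (lines), and the estimates under the alternative settings (grey ticks). Ticks lie on both sides of 0 for Fcgr1a, Fcgr3a, Fcgr2b, Itgam and Ptprc, and on 1 side for Lilrb4, Cd14, Cd68, Tyrobp and Fcer1g.

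The treated libraries were not alike. SCN9A_2544 replicate 3 held the highest level of 4 of the 10 genes (Fcgr1a, Tyrobp, Cd14 and Cd68) and SCN9A_2544 replicate 4 that of another 4 (Fcgr3a, Fcgr2b, Lilrb4 and Fcer1g). SCN9A_2544 replicates 2 and 5 lay at or below the treated mean for all 10 genes on the log2 scale. Among controls, PBS replicate 2 lay above the PBS mean for 9 of the 10 genes, and PBS replicate 5 held the lowest level of 5. Averaged over the 10 genes, log2 CPM was 2.36 ± 0.31 for PBS and 2.94 ± 0.41 for SCN9A_2544 (SD, 5 libraries each). PBS replicate 2, at 2.89, lay above treated replicates 1, 2 and 5, at 2.82, 2.62 and 2.52.

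Lilrb4 was then set against the other 9 genes of the same library, which takes out their mean but not what only some of them share. The difference between Lilrb4 and the mean of the others, in log2 CPM, was -1.80, -2.10, -2.88, -2.58 and -2.81 in PBS replicates 1 to 5. It was -1.13, -0.95, -2.01, -1.02 and -0.86 in SCN9A_2544 replicates 1 to 5. Treated replicates 1, 2, 4 and 5 lay above every PBS library, and treated replicate 3 lay between PBS replicates 1 and 2. The group means were -2.43 ± 0.47 and -1.19 ± 0.47 (SD, n = 5 each), a difference of 1.24. Since Lilrb4 was chosen for being higher in these treated libraries, a gap in this direction was set by the choice, and it is given as a description. In treated replicate 5, Fcgr1a, Fcgr3a, Tyrobp, Itgam and Ptprc lay below their PBS mean CPM. Fcgr2b, Fcer1g and Cd68 lay above theirs in that library, and Lilrb4 and Cd14 lay above every PBS library.

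**Figure D3:**
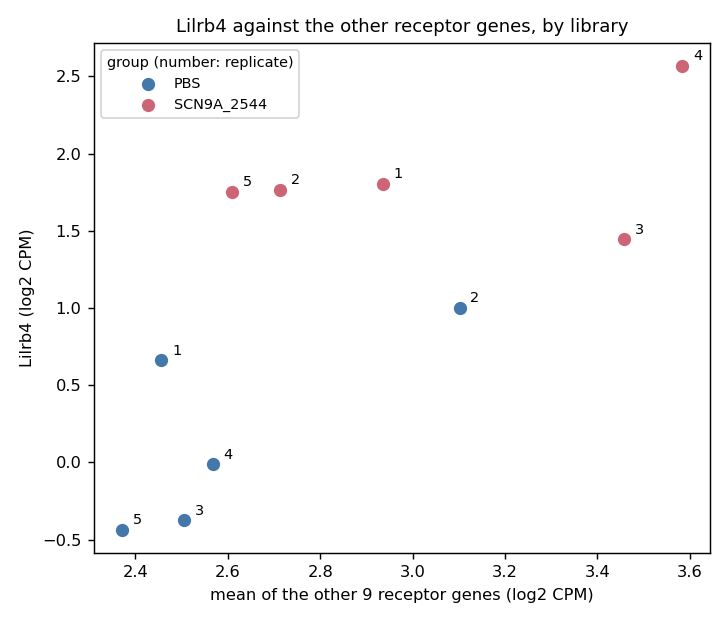
Lilrb4 (vertical axis) against the mean of the other 9 genes (horizontal axis), both in log2 CPM, each point a library marked with its replicate number and coloured by group. At a like level of the other genes, treated replicates 2 and 5 lie above PBS replicates 1 and 4 on the vertical axis.

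The position of Lilrb4 was also compared with that of its gene family, the leukocyte immunoglobulin-like receptors, a set added after the values were seen. Of 7 further family members with a row, 5 were tested, and none passed the edgeR threshold. Lilrb3a averaged 6.63 ± 4.39 CPM for PBS and 5.10 ± 2.02 CPM for SCN9A_2544 (SD, 5 libraries each), and its log2 fold change was -0.38 (SE 0.48). Lilrb3l and Lilrb2 had log2 fold changes of -0.30 and -0.17, and Lilra5 and Lilrb3 of 0.09 and 0.18. The groups overlapped for each of the 5, unlike those of Lilrb4. These genes resemble each other closely, and how reads that match several of them were counted is not given in the sources used here. Of the 10 estimates of Lilrb4, 3 were not whole, each within a rounding step of a whole number.

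Markers of macrophages varied with these genes to differing degrees. The list of macrophage markers, without the receptor genes themselves, had 17 of 20 tested members above 0, beside 53.4% of all genes tested. None passed the edgeR threshold. At an unadjusted p under 0.05, 7 were higher and 1 lower, beside 2.5% of all genes higher and 4.23% in either direction. The groups did not overlap for 4 of the 20, higher in treated ganglia, beside 0.454% of all genes tested. They did not overlap for 1 other marker, lower in treated ganglia, beside 0.211%. The summed level of the list ran from 749 to 1035 CPM in PBS and from 874 to 1626 CPM in treated libraries, with SCN9A_2544 replicates 4 and 3 the highest. No listed marker with a row was at 0 in all libraries. The most abundant were Lyz2 (lysozyme), Lgmn (the lysosomal protease legumain) and Cd74 (the invariant chain of MHC class II), with log2 fold changes of 0.18, 0.17 and 0.79. The highest log2 fold change was that of C1qa, a chain of complement C1q, at 1.03, and the lowest that of Lyve1, at -0.78. With the mean of these markers as a covariate, a choice made after the data were seen, the edgeR log2 fold change was 1.53 for Lilrb4 and 0.55 for Cd14. With the same covariate it was 0.04 for Cd68, 0.05 for Tyrobp, 0.10 for Fcer1g, -0.31 for Fcgr2b, -0.39 for Itgam, -0.46 for Fcgr1a, -0.14 for Ptprc and -0.0043 for Fcgr3a. The share of each difference that goes with macrophage content was not tested further.

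The receptor genes were then compared with the marker lists over the 10 libraries. Correlations are given as a description, over libraries that also differ in their content of neurons and glia. Over all libraries Cd68 and Fcgr2b had the highest r with the macrophage mean, with Pearson r of 0.94 and 0.90 (Spearman rho 0.78 and 0.93), and 0.84 and 0.72 without the 2 libraries farthest from the median. Fcgr1a followed it at 0.73, and at 0.21 without those libraries, and Cd14 at 0.73 and 0.79. Within groups r with the macrophage mean was 0.90 for Cd68, 0.90 for Fcgr1a, 0.89 for Fcgr2b and 0.42 for Cd14. For Lilrb4 r with that mean was 0.62, and 0.38 without the 2 farthest libraries and 0.12 within groups. For Fcer1g, Tyrobp, Fcgr3a, Itgam and Ptprc it ran from 0.43 to 0.77 over all libraries. Without the 2 farthest libraries these values ran from -0.10 to 0.21, and within groups from 0.35 to 0.61. Fcgr1a ran against the pan-neuronal mean (r = -0.72, rho = -0.73, and -0.70 without the 2 farthest libraries), and the next lowest r of the 10 was -0.40, for Cd68. Within groups Cd14 and Cd68 ran against it too, at -0.68 and -0.60 beside -0.74 for Fcgr1a. Fcgr1a was about as close to endothelial, fibroblast and Schwann cell markers, at r = 0.75, 0.72 and 0.71. Without the farthest libraries there these values were 0.54, 0.66 and 0.62. Within groups r of Cd14 was 0.82 with endothelial and 0.69 with Schwann cell markers, beside 0.42 with macrophage markers. Which of these lists the receptor genes go with was not tested.

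Itgam and Ptprc varied with markers of several blood-borne cells. Against the mean of 12 neutrophil markers r was 0.80 for Itgam and 0.82 for Ptprc (rho 0.87 and 0.73), and 0.62 and 0.53 without the 2 farthest libraries. Against the monocyte markers r was 0.92 and 0.90, and 0.81 and 0.86 without the farthest libraries there. Against the B cell markers r was 0.75 and 0.80 (0.57 and 0.63 without the farthest libraries), and against the blood markers it was 0.64 and 0.72 (0.22 and 0.29). The monocyte markers had 4 of 7 tested genes above 0, a median of 0.04, and a summed level of 72.9 to 166 CPM in PBS and 76.5 to 219 CPM in treated libraries. At an unadjusted p under 0.05, 1 of the 7 was lower and 0 higher, beside 4.23% of all genes in either direction. Between the groups 1 of the 12 tested neutrophil markers lay above 0, with a median log2 fold change of -0.38. The mean log2 CPM of these markers did not share that direction, at 3.75 ± 1.48 for PBS and 3.75 ± 0.65 for SCN9A_2544 (SD, 5 libraries each). Their summed level ran from 77.8 to 906 CPM in PBS, highest in replicate 2 and lowest in replicate 5 as for Itgam and Ptprc, and from 181 to 534 CPM in treated libraries, and none was at 0 in all libraries. The part of these cells in the levels of Itgam and Ptprc was not tested.

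Among the receptor genes themselves all 45 pairs had r above 0, with a median of 0.59. Taking deviations from the group means, 42 of the 45 remained above 0, with a median of 0.50. The closest pair was Itgam with Ptprc (r = 0.92, rho = 0.87, 0.92 within groups). Fcer1g, which serves many of the receptors, had the highest median r with the other genes, 0.76. Lilrb4 and Cd14, the genes whose groups were apart, gave r = 0.63 over all libraries and r = -0.47 within groups, so within a group the libraries with more Lilrb4 did not have more Cd14. Lilrb4 and Fcgr1a gave r = 0.05 (rho = -0.03).

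**Figure D4:**
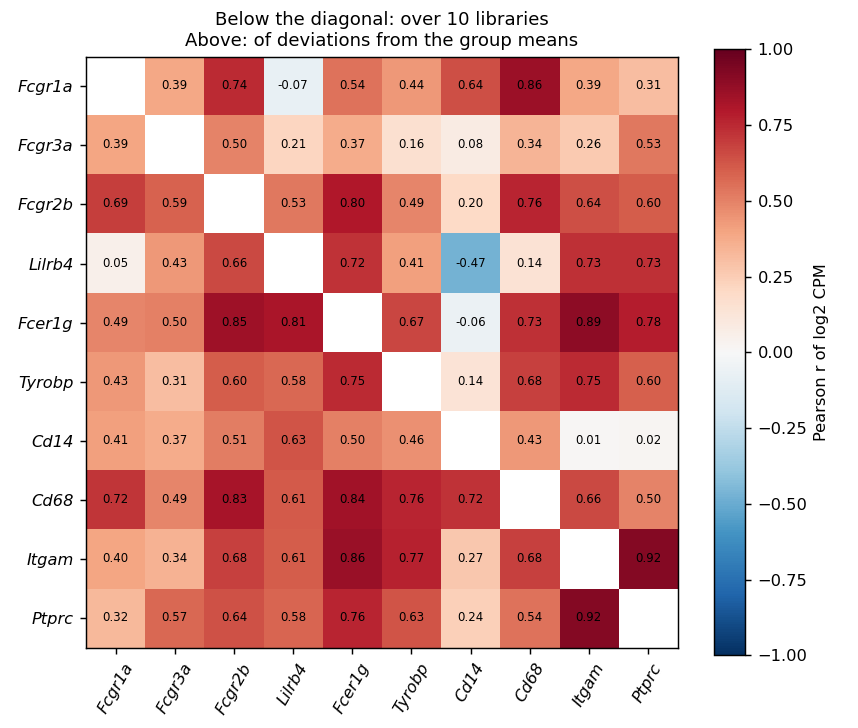
Pearson r of log2 CPM between the 10 genes, over the 10 libraries below the diagonal and of the deviations from the group means above it, with the colour scale from -1 to 1. Itgam and Ptprc form the closest pair on both sides of the diagonal, and Lilrb4 with Cd14 is 0.63 below and -0.47 above the diagonal.

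Other cell types that could carry these genes were followed by their markers. B cells use Fcgr2b, and of 6 tested B cell markers 1 lay above 0, with a summed level of 5.87 to 60.3 CPM in PBS and 15.1 to 33.4 CPM in treated libraries. The mean log2 CPM of the B cell markers was 1.74 ± 1.21 for PBS and 1.83 ± 0.41 for SCN9A_2544 (SD, 5 libraries each). Natural killer cells use Tyrobp and Fcer1g, and of 7 markers with a row only Nkg7 was abundant enough to test, with a summed level of 0.267 to 5.19 CPM in PBS and 1.41 to 4.43 CPM in treated libraries. Mast cells use Fcer1g, and 2 of their 6 tested markers lay above 0, with Cma1, a mast cell chymase, lowest at a log2 fold change of -1.44. Their summed level was 25.2 to 40.1 CPM in PBS and 26.6 to 57.5 CPM in treated libraries, most of it from Kit, which other cells also express. Microglia markers, which macrophages share in part, had 7 of 7 genes above 0, beside 53.4% of all genes tested. The summed level of these markers was 62.1 to 105 CPM in PBS and 78.7 to 122 CPM in treated libraries. At an unadjusted p under 0.05, 2 of the 6 mast cell markers were lower and 1 of the 7 microglia markers was higher. No B cell or natural killer cell marker reached it, beside 4.23% of all genes in either direction. No listed marker with a row was at 0 in all libraries for these cell types, and the part of these cells in the receptor levels was not tested.

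The genes that work beside the receptors were then examined in lists put together with earlier results of these data known. No gene of any of these lists passed the edgeR threshold in either direction. Over all genes tested, 53.4% lay above 0. At an unadjusted p under 0.05, 6 tested rows were higher and 0 lower, beside 2.5% of all genes higher. Of the 6, 4 were among the 10 tested rows of ITAM-coupled receptors, in which Fcgr2a counts with 2 rows. Both rows of Fcgr2a lay above 0, with a median log2 fold change of 0.48, and 1 of them is among the 4. The list of other receptors taken here as ITAM-coupled, whose use of an adaptor was not checked, had 8 of 10 tested rows above 0. It had a median log2 fold change of 0.37. Its most abundant genes were Fcrl2, an Fc receptor-like gene, at 2.73 (SE 0.83), Fcgr2a, whose more abundant identifier was at 0.31 (SE 0.20), and Clec7a, the receptor dectin-1 for fungal glucans, at 0.96 (SE 0.37). Fcrl2 was the most variable of them, at 9.06, 0.665, 0.632, 8.63 and 0.934 CPM in PBS replicates 1 to 5 and 32.3, 22.6, 6.61, 56.9 and 12.5 CPM in SCN9A_2544 replicates 1 to 5. Its groups overlapped, since treated replicate 3 lay below PBS replicates 1 and 4. Trem3 was lowest, at -0.50 (SE 0.54). Trem2, a lipid-sensing receptor that needs Tyrobp, was the 1 gene of the list whose groups did not overlap (beside 0.454% of all genes tested) and is named for that after its values were seen. It ran from 3.36 to 4.85 CPM in PBS and from 5.10 to 10.96 CPM in treated libraries, with a log2 fold change of 0.74 (SE 0.23).

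Of 18 other inhibitory receptors tested, 12 lay above 0, with a median log2 fold change of 0.10. The most abundant were Sirpa, which reads the signal of Cd47, Vsir, and Pecam1, an adhesion molecule chiefly of endothelium, at 0.09, -0.10 and 0.02. Cd33, a sialic acid-binding receptor, was highest at 0.73 (SE 0.35), and Lilrb3a was lowest. Beside the median of 0.02 over all genes, the 2 inhibitory members Lilrb4 and Fcgr2b stood at 1.75 and 0.86, and whether they differ from the wider list was not tested.

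Downstream of the receptors the list medians were 0.16 and 0.23. Of 27 tested genes of ITAM signalling, 21 lay above 0, with a median of 0.16 and a range from -0.47 for the kinase gene Btk to 0.48 for the Src family kinase gene Fgr. The most abundant were the adaptor gene Grb2, the kinase gene Prkcd and the kinase gene Fyn, at 0.05, 0.15 and 0.18, all of which cells other than leukocytes express. Of 12 tested genes of ITIM signalling, 11 lay above 0, with a median of 0.23, among them the phosphatase gene Ptpn11 at 0.07, Csk at 0.22 and Inppl1 at 0.22. The kinase Syk and the phosphatases Ptpn6 and Inpp5d, named as the direct effectors of these motifs after their values were seen, had log2 fold changes of 0.23 (SE 0.31), 0.24 (SE 0.24) and 0.31 (SE 0.21).

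Partners of Cd14 and Itgam did not share the separation of Cd14. Of 19 tested genes of the Toll-like receptor pathway, 15 lay above 0, with a median of 0.13. Tlr4, named after its values were seen, was at 0.08 (SE 0.32), with means of 2.62 ± 0.796 CPM and 2.77 ± 1.003 CPM (SD, 5 libraries each) for PBS and SCN9A_2544. Lbp, the serum protein that delivers lipopolysaccharide to Cd14, was highest at 1.04 (SE 0.53), and Nfkbia, the inhibitor of NF-kB, was lowest at -0.49 (SE 0.32). Of 13 tested integrin partners and ligands, 9 lay above 0, with a median of 0.04, from -0.51 for Rap1a to 0.59 for Icam1, a ligand of Itgam. Of 5 tested genes of the phagocyte oxidase, 4 lay above 0 and 1 below, with a median of 0.16.

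**Figure D5:**
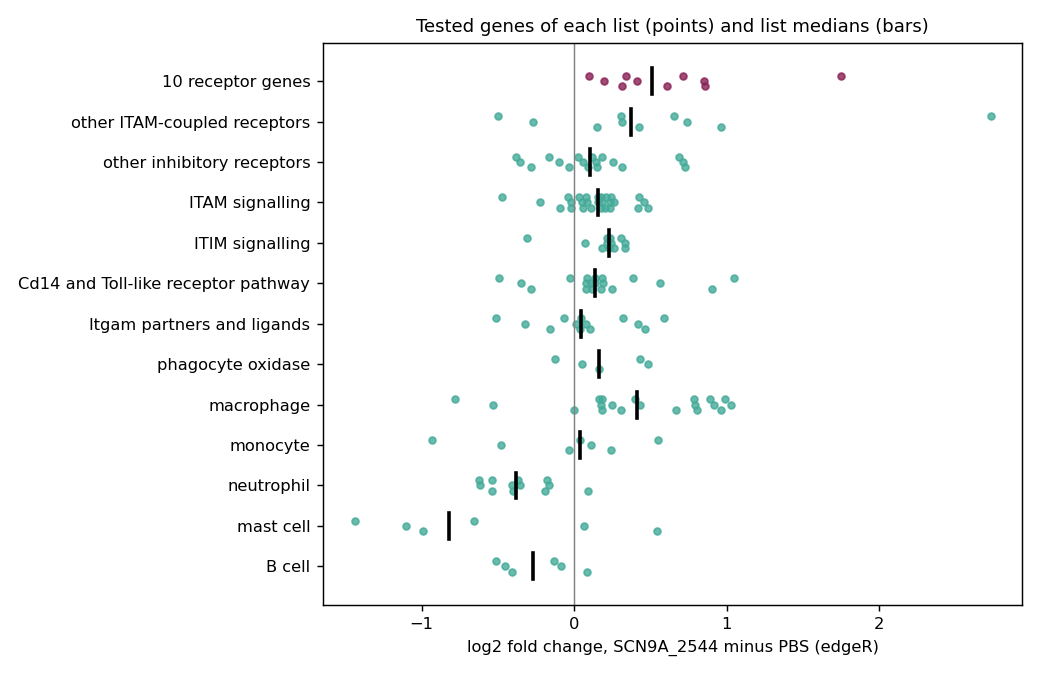
edgeR log2 fold change, SCN9A_2544 minus PBS, of each tested gene (points) in the 10 receptor genes and 12 further lists (rows), with the median of each list as a bar; points are spread vertically for legibility only. The medians are 0.51 for the receptor genes, 0.37 for other ITAM-coupled receptors, 0.41 for macrophage markers and below 0 for neutrophil, mast cell and B cell markers.

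Finally, all 14690 further genes with a mean of at least 1 CPM were ranked by Pearson r with the mean of the 10 genes over the 10 libraries, as a description. The 5 nearest were Tstd1 (r = 0.93), Arl11 (0.91), the complement component C3 (0.90), Fcgr2a (0.90) and Clec7a (0.89). For these r within groups ran from 0.82 to 0.90. C3, the protein on which all complement pathways converge, averaged 13.5 CPM for PBS and 38.5 CPM for SCN9A_2544, a log2 fold change of 1.50 (SE 0.53). The 5 nearest to Lilrb4 were other genes: Gadd45g (r = 0.93), AABR07052486.1 (0.91), the cytokine subunit gene Ebi3 (0.90), Ralgds (0.90) and the complement receptor gene C5ar2 (0.89). Their r with Lilrb4 within groups ran from 0.62 to 0.81. Since Lilrb4 was chosen for this contrast, its r over all libraries is partly set by the choice. Gadd45g, a stress-induced gene, averaged 17.2 CPM for PBS and 26.5 CPM for SCN9A_2544, a log2 fold change of 0.62 (SE 0.17).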

How the data were processed

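The deposited file holds the authors' estimated counts, unnormalized, for each gene in each library. Per the submitters' processing notes, STAR (2.7.10a), DESeq2 (1.44.0) and the build mRatBN7.2 were used, with no role stated. Which program counted, on which annotation and strand, is not given in the sources used here. Estimated counts were rounded to whole numbers, and all 10 libraries were fitted with edgeR 4.0.16 (R 4.3.3): filterByExpr (minimum count 10, minimum total count 15), TMM scaling, quasi-likelihood F-test and Benjamini-Hochberg adjustment over all 15186 tested genes, at a threshold of 0.05. The standard error is the log2 fold change divided by the square root of F, and log2 CPM uses a prior count of 2. The fit was tested on simulated data. DESeq2 1.42.0 and limma 3.58.1 were alternatives. Members, lists and tests were chosen with earlier results of these data known. Named from each list are the 3 genes of highest mean CPM and those with the highest and lowest log2 fold change, with exceptions stated. The design also planned a search of protein motifs, which was not run, and protein sequences were not used here. Some genes that the naming rule takes are left unreported.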

Additional observations from a re-analysis of the deposited data

How the results depend on the processing

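Across 21 alternatives the log2 fold change of Lilrb4 ran from 1.39 to 2.04, that of Cd14 from 0.55 to 0.77, and those of Cd68, Tyrobp and Fcer1g stayed above 0. With limma voom and library weights the value was 0.04 for Fcgr2b, 0.26 for Cd68, 0.08 for Tyrobp and 0.11 for Fcer1g. The sign turned in that fit for Fcgr1a (-0.19), Itgam (-0.47) and Ptprc (-0.26). With the macrophage covariate, chosen after seeing the data, it turned for Fcgr1a (-0.46), Fcgr3a (-0.0043), Fcgr2b (-0.31), Itgam (-0.39) and Ptprc (-0.14). Once the 3 libraries poorest in pan-neuronal genes were removed it turned for Itgam (-0.31) and Ptprc (-0.16), and with 1 library left out Fcgr1a ran from -0.064 to 0.19. The cause was not tested. DESeq2 called 17 genes, 1 of them among the 10 receptor genes. Limma voom, the pan-neuronal covariate, the Schwann cell covariate and the fit without those 3 libraries each called 1 gene and 0 of the 10, and leaving out 1 library gave 0 or 1 gene. The mean difference of the 10 genes ran from 0.35 to 0.72 over 14 alternatives. With the replicate block 0 genes were called and Lilrb4 stood at 1.79. Same-numbered libraries were alike for some numbers only. Their deviations correlated at -0.01 to 0.57, with 0.38 for replicate 1 and 0.57 for replicate 3. Of the 10 libraries, 4 matched best with their own number, and pairing was not tested further. Low counts limit Lilrb4 and Fcgr3a most.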

Other observations

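Lilrb4 and Cd14 also followed satellite glia markers, the cells that wrap neuronal cell bodies, over the 10 libraries. For Lilrb4 r with the mean of 12 satellite glia markers was 0.82 (rho = 0.78, and 0.82 without the 2 libraries farthest from the median), and for Cd14 it was 0.84 (rho = 0.82, and 0.94). Within groups these values were 0.14 and 0.27. Lilrb4 was chosen for being higher in these treated libraries. Its r over all libraries with a list that differs between the groups is therefore partly set by that choice. The satellite glia list had 9 of 12 genes above 0, beside 53.4% of all genes tested, with a median log2 fold change of 0.29. Lilrb4 followed the nerve injury genes as well, at r = 0.84 (rho = 0.92, 0.78 without the 2 farthest libraries, and 0.59 within groups). In that list 14 of the 14 tested genes lay above 0, beside 53.4% of all genes tested, with a median of 0.79 and none past the edgeR threshold. The largest log2 fold change among them was that of Npy, a neuropeptide of injured neurons, at 3.59 (SE 0.94). Within groups r of Lilrb4 was 0.75 with B cell, 0.67 with neutrophil, 0.63 with blood and 0.59 with monocyte markers. Over all libraries these values were lower, at 0.42, 0.33, 0.25 and 0.39. Without the 2 libraries farthest from the median they were -0.40, -0.03, -0.06 and 0.53. With macrophage and microglia markers r within groups was 0.12 and -0.41. Which of these lists Lilrb4 goes with was not tested.

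Treml1, a receptor of platelets in the Trem gene cluster, had too few counts for the edgeR test and is named after its values were seen. It stood at 1.17, 1.53, 0.984, 1.71 and 0.534 CPM in PBS replicates 1 to 5 and at 0.510, 0.272, 0.477, 0.378 and 0.135 CPM in SCN9A_2544 replicates 1 to 5. The highest treated and the lowest PBS library were close, at 0.510 and 0.534 CPM. Groups that do not overlap, lower in treated ganglia, were found for 0.211% of the genes tested. Those genes do not include Treml1 or others of so low a count, so that share is no measure for it.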
